A study of Homo sapiens with 60 samples.

Results

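The genes described here encode proteins that liver cells release into blood: 53 listed genes in 5 roles, with 12 carriers and fetal proteins, 7 apolipoproteins, 16 coagulation and kinin genes, 5 complement genes and 13 acute phase genes and protease inhibitors. They were chosen by name and matched by gene identifier among the 60675 genes of the count table. All 53 were found, and 48 had enough counts for a test. Hepatocytes make most plasma proteins, and a shared set of liver transcription factors (HNF4A and the FOXA and C/EBP factors among them) keeps their genes active. In the acute phase response, interleukin-6 acts through its receptor and STAT3 to raise proteins such as fibrinogen and haptoglobin, while the levels of so-called negative acute phase proteins, such as albumin and fetuin-A, go down. Alpha-fetoprotein is the fetal counterpart of albumin and is made again by many hepatocellular carcinomas.

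RNA was sequenced from HepG2, a single established human hepatocellular carcinoma line, after 24 h of treatment, in 60 libraries that made 20 groups of 3. The vehicle was DMSO, which the sample labels give as 0.1% and the text on the series' design as 2%, and wortmannin, an inhibitor of phosphoinositide 3-kinases, was the positive control at 10 µM. The other groups received a water extract of 1 of 6 medicinal herbs in 3 doses, called high, medium and low here. Aucklandiae Radix, Schisandrae Fructus, Zizyphi Semen, Longan Arillus and Liriopis seu Ophiopogonis Tuber were used at 500, 100 and 20 µg/mL, Polygalae Radix at 450, 90 and 18 µg/mL, and all groups had the same line and the same time point. The labels do not say that replicates came from separate cultures, so a p-value here speaks of the spread among the libraries, which could be technical, and not of separate experiments.

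Total counts ran from 20.21 to 36.41 M per library. Sample codes placed the vehicle in one set, wortmannin in another, and the extracts in 3 sets: Liriopis with Schisandrae, Longan with Zizyphi, and Polygalae with Aucklandiae. The labels do not say what the sets are. Each comparison with the vehicle crosses sets, so set and treatment cannot be told apart there, whereas the high and the low dose of an extract share a set. In 4 libraries the level of a gene leaned on its GC content more than in the others, with the lowest slopes of the 60: low-dose Liriopis replicate 1 (-1.73), vehicle replicate 1 (-1.2), replicate 2 of low-dose Schisandrae (-0.817) and replicate 3 of medium-dose Aucklandiae (-0.775). Counts of calls are therefore also given without these 4. The 5 markers of a hepatocyte-derived line KRT8, KRT18, GPC3, TF and HNF4A were all expressed, at a summed 4899 to 6088 CPM over the 60 libraries. Of the markers of other cells, PTPRC, HBB, COL1A2, DCN, LUM, KDR, TEK and KRT5 were at 0 in the vehicle, while LYZ (949 CPM) and KRT19 (200 CPM) were expressed. ACTA2 (55 CPM), CD68 (47.2), PDGFRB (11.4), PECAM1 (3.94) and CD14 (2.12) were also measured there, and the remaining markers were below 1 CPM. In these bulk samples fewer expressing cells and less RNA per cell cannot be told apart. The counting's strand setting is not given in the sources used here, so values of genes that overlap another on the opposite strand are uncertain. Where the overlap is on the same strand, as for CFB with C2, no strand setting would separate shared reads. In all, 25 of the 53 genes overlap another annotated gene. Among them are APOM with BAG6, F12 with GRK6, VTN with SARM1, A2M with its antisense RNA, CP with HPS3, CFB with C2, HP with TXNL4B, C3 with GPR108, SERPIND1 with PI4KA, RBP4 with FFAR4, SERPINA5 with SERPINA4, F10, APOA1, A1BG and TFPI with antisense RNAs, SAA4 with a SAA2 readthrough, and AHSG, FETUB and KNG1 with a shared antisense transcript. Reads of the near-identical pairs ORM1 and ORM2, SAA1 and SAA2, and HP and its copy HPR could also be split.

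In the vehicle, the 53 genes took 6.41% ± 0.227 of all counts (SD, n = 3), of which the 7 apolipoproteins took 3.19%. Divided by the length of the longest coding transcript, the highest mean level was that of APOA2, the second protein of high-density lipoprotein, at 3087 CPM per kb. ALB, which encodes serum albumin, followed at 2941, APOB, the structural protein of very-low- and low-density lipoproteins, at 1951, and SERPINA1, the inhibitor of neutrophil elastase, at 1821 CPM per kb. AFP, encoding alpha-fetoprotein, stood at 1145 CPM per kb, below ALB. At the low end were PLG, the precursor of the clot-dissolving protease plasmin, at 0.396 CPM per kb, and FETUB at 1.0. The 5 genes without a test were at or near 0 in the line: CRP had no count in any of the 60 libraries, F9 had a count in 1, SAA1 in 5, SAA2 in 13 and GC, the vitamin D carrier, in 35, with at most 4 counts in a library. The inducible acute phase genes CRP, SAA1 and SAA2 thus could not be followed at this depth, whereas SAA4, the constitutive member of the serum amyloid A family, was measured at 29.4 CPM.

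**Figure D1:**
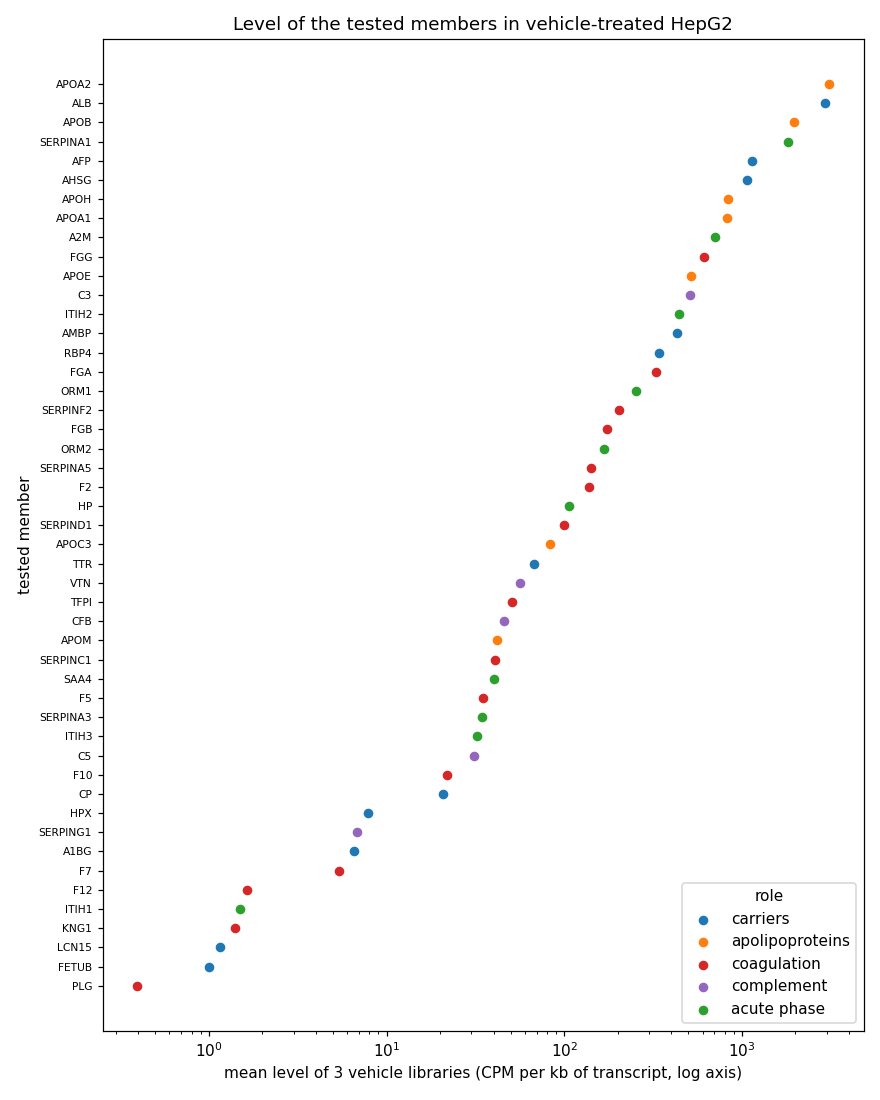
Mean level of each of the 48 tested genes in the 3 vehicle libraries, in CPM per kb of transcript on a log axis, coloured by role. The levels run from 0.396 (PLG) to 3087 CPM per kb (APOA2), and each role other than the apolipoproteins has members both above 100 and below 10.

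A gene was called when edgeR's quasi-likelihood test gave an adjusted p of at most 0.05 over all 16517 tested genes, and it is said to have risen or fallen only then. The comparisons with the vehicle share its 3 libraries and are not independent of each other. With wortmannin, 34 of the 48 genes were called, 32 higher and 2 lower, where 32.6% of all tested genes were called (16.4% higher and 16.2% lower), and their median log2 fold change was 0.299 (0.00814 over all tested genes). With high-dose Schisandrae, 25 were called, 7 higher and 18 lower (15.7% of all genes, 8.4% higher and 7.25% lower; median -0.16). With high-dose Polygalae, 29 were called, 3 higher and 26 lower (20.1% of all genes, 10.2% higher and 9.94% lower; median -0.246). With high-dose Aucklandiae, 27 were called, 7 higher and 20 lower (26.1% of all genes, 13.6% higher and 12.5% lower; median -0.165). Wortmannin calls were thus mostly rises, and the calls of these 3 high doses mostly falls. Without the 4 libraries of low GC slope the counts were 30 for wortmannin, 19 for Schisandrae, 21 for Polygalae and 22 for Aucklandiae. With each library of the comparison left out in turn, 26, 12, 21 and 17 genes respectively kept their call every time. For counts under other settings, here and below, the share of all tested genes is not given. Whether that share moved as well is therefore not shown.

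Some markers of other cells and of the line itself moved in the same comparisons. Of the leukocyte and fibroblast markers, PTPRC, COL1A2, DCN and LUM were at 0 in all vehicle, wortmannin and high-dose Schisandrae libraries. Others of the same lists were expressed there. In that order of groups, CD68 had means of 47.2, 46.1 and 55.2 CPM, PDGFRB 11.4, 20.6 and 18.4, and ACTA2 55, 60.1 and 41.6. LYZ, which encodes lysozyme, measured 949 ± 21.6 CPM in the vehicle (SD, n = 3), 1477 ± 57.2 with wortmannin (log2 fold change 0.64 ± 0.05, edgeR adjusted p = 1e-15) and 1628 ± 16.4 with high-dose Schisandrae (0.78 ± 0.05, edgeR adjusted p = 1.8e-18). LYZ makes up most of the 6 blood and macrophage markers, whose sum ran from 980 to 1022 CPM in the vehicle, 1475 to 1582 with wortmannin, 1674 to 1706 with Schisandrae, 973 to 1022 with Polygalae and 928 to 971 with Aucklandiae at the high dose. PDGFRB, a growth factor receptor of mesenchymal cells, was higher with wortmannin (0.85 ± 0.11, edgeR adjusted p = 3.7e-08) and Schisandrae (0.69 ± 0.11, edgeR adjusted p = 8e-06). ACTA2 of the fibroblast list fell with high-dose Schisandrae and Polygalae (-0.40 ± 0.08 and -0.31 ± 0.07, edgeR adjusted p = 7.9e-05 and 0.002). CD14 fell with high-dose Schisandrae (-0.57 ± 0.18, edgeR adjusted p = 0.025). The endothelial marker PECAM1 fell with wortmannin, Polygalae and Aucklandiae (-0.42, -0.37 and -0.65, edgeR adjusted p = 0.009, 0.029 and 0.00011). VWF, of the same list, rose with wortmannin (0.83, edgeR adjusted p = 0.027). The 8 fibroblast markers summed to 63.6 to 71.1 CPM in the vehicle, 79.4 to 83 with wortmannin, and 59.2 to 63.4, 53.4 to 55.9 and 59.7 to 63.5 with the 3 high doses. Of the epithelial keratins of the line, KRT8 and KRT18 fell with wortmannin (-0.35 ± 0.05 and -0.43 ± 0.05, edgeR adjusted p = 1.4e-07 and 6.6e-09) and with high-dose Polygalae (-0.29 ± 0.05 and -0.33 ± 0.05, edgeR adjusted p = 9.6e-06 and 4e-06), and rose with high-dose Schisandrae (0.21 ± 0.05 each, edgeR adjusted p = 0.0012 and 0.0024). KRT19 fell with wortmannin (-0.30 ± 0.06, edgeR adjusted p = 5.5e-05) and with high-dose Polygalae (-0.15 ± 0.06, edgeR adjusted p = 0.049). In the other direction, GPC3 and TF of the line's markers rose with wortmannin (0.42 ± 0.06 and 0.18 ± 0.05, edgeR adjusted p = 5.7e-08 and 0.0025). GPC3 also rose with high-dose Aucklandiae (0.15 ± 0.06, edgeR adjusted p = 0.037), and HNF4A was not called with wortmannin or these 3 high doses. The line's 5 markers summed to 5104 to 5345 CPM in the vehicle, 5529 to 5674 with wortmannin, and 5561 to 5741, 4899 to 5110.3 and 5277 to 5461 with high-dose Schisandrae, Polygalae and Aucklandiae. The part of these marker changes in the results was not tested.

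The remaining comparisons with the vehicle gave fewer calls. Medium-dose Polygalae changed 13 genes, 1 higher and 12 lower (11.7% of all genes called, 5.93% higher and 5.73% lower), and its low dose changed 16, 6 higher and 10 lower (15.6%, with 8.63% higher and 7.01% lower). Medium-dose Aucklandiae changed 7, all lower (5.52%, with 2.47% lower), and its low dose 2, both higher (4.45%, with 2.19% higher). Medium-dose Schisandrae changed 4, 3 higher and 1 lower (2.98%, with 1.79% higher and 1.2% lower), and its low dose 0 (0.0727%). Every call of Zizyphi and of Longan was a rise: 9, 1 and 5 genes at the high, medium and low dose of Zizyphi (4.42%, 0.702% and 2.09% of all genes called, and 2.55%, 0.418% and 1.14% higher) and 4, 0 and 1 with Longan (1.76%, 0.0666% and 0.581% called, and 0.92% and 0.375% higher at the high and low dose). Liriopis changed 0 of the 48 genes at the high (0.0484%), medium (0.0303%) and low dose (0.0303%). Without the 4 libraries, these counts were 8 and 3 for medium- and low-dose Polygalae, 2 and 0 for Aucklandiae, 2 for medium-dose Schisandrae, 3, 0 and 1 for Zizyphi, and 2 and 0 for high- and low-dose Longan. Each of these counts was thus lower by more than 1.5 times. Of the larger counts, that of medium-dose Polygalae was 0 in a fit of the 6 libraries alone, 21 without a filter on low counts and 7 to 23 as single libraries were left out, and that of low-dose Polygalae was 10 in the fit of 6 and 3 to 16 with a library left out. Of the 48 genes, 45 were called in at least 1 of the 19 comparisons with the vehicle. The 3 that were never called were RBP4, the retinol carrier, and ORM1 and ORM2, the acid glycoproteins. The same count over all tested genes was not made, and wortmannin alone called 32.6% of them. The 45 are therefore not read as a trait of these genes.

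**Figure D2:**
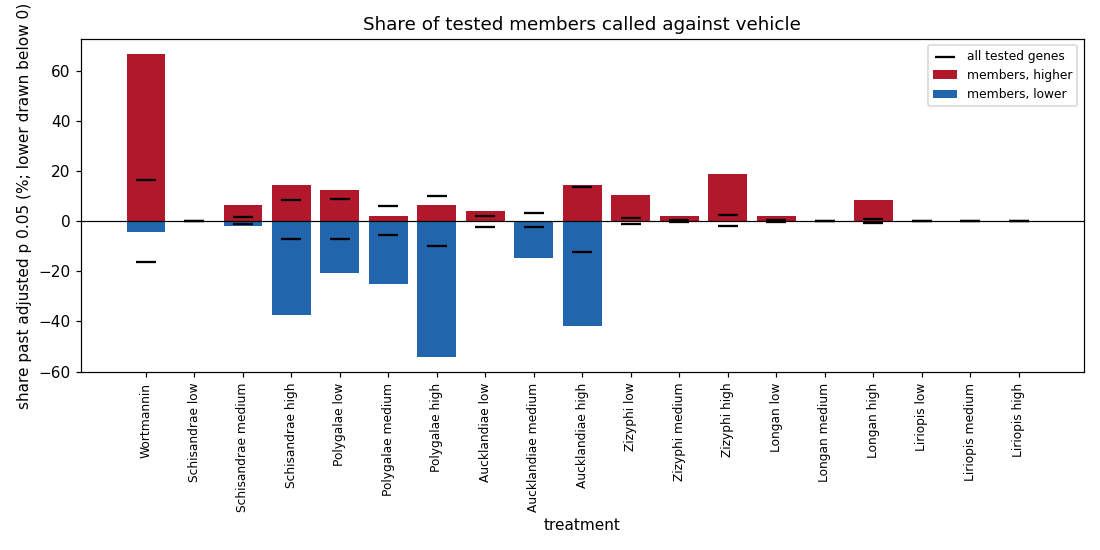
Share of the 48 tested genes called higher (red, upward) or lower (blue, downward) against the vehicle in each treatment, in percent, with black ticks for the same share over all 16517 tested genes. Rises dominate with wortmannin (32 of 48 genes) and falls with the high doses of Polygalae (26), Aucklandiae (20) and Schisandrae (18).

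**Figure D3:**
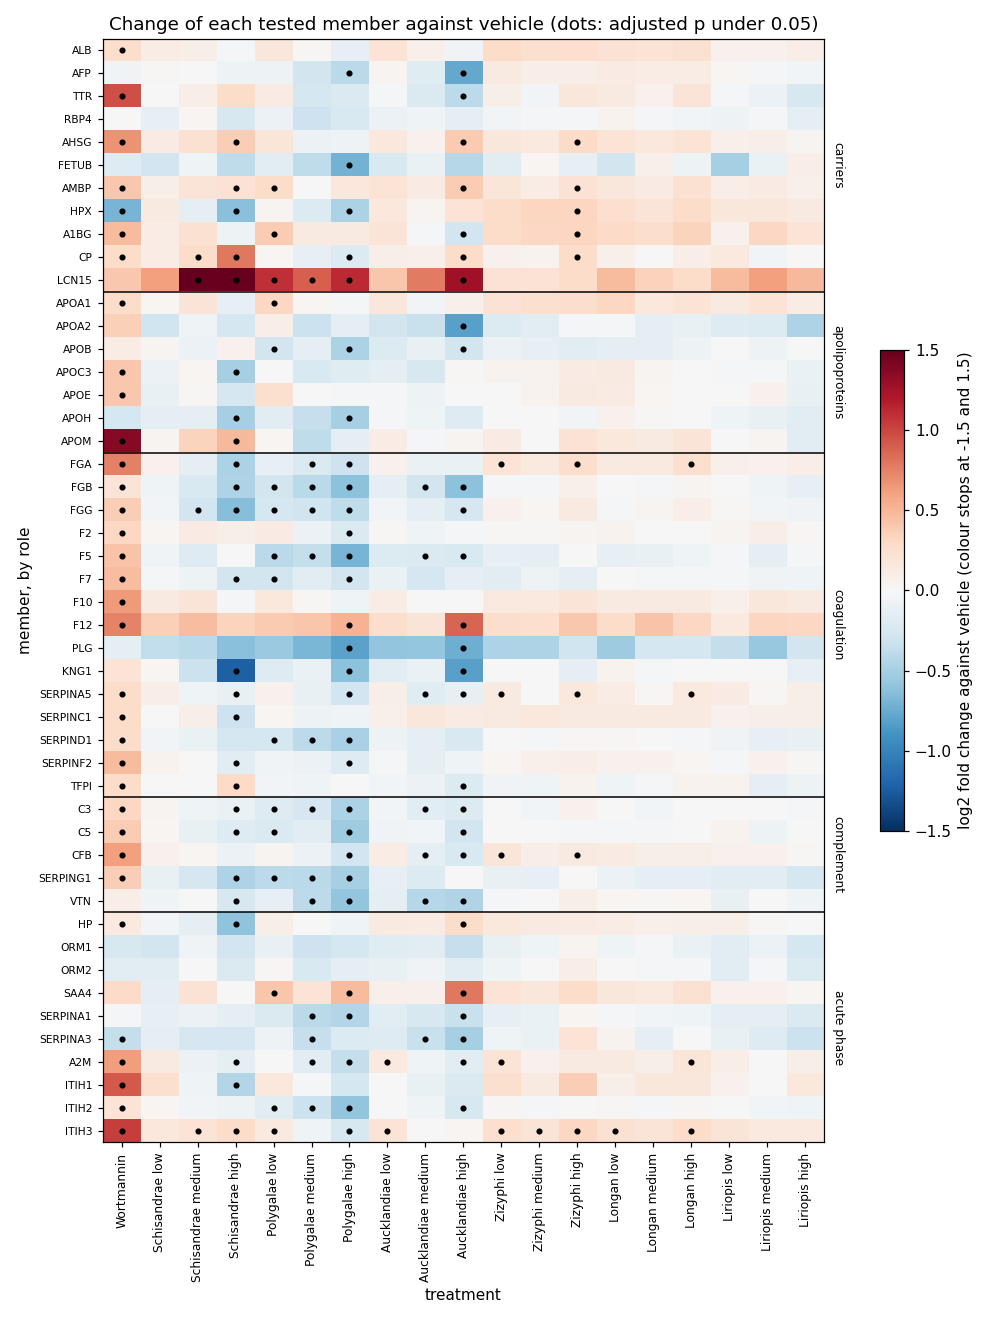
Log2 fold change of the 48 tested genes (rows, by role) against the vehicle in the 19 treatment groups (columns), with called values marked. The coagulation rows are mostly higher with wortmannin (13 of 15 genes called) and lower with high-dose Polygalae (11 of 15), and the column of high-dose Liriopis holds 0 calls.

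Among the 11 tested carriers, 6 rose and 1 fell with wortmannin. High-dose Schisandrae raised 4 and lowered 1, high-dose Polygalae raised 1 and lowered 4, and high-dose Aucklandiae raised 4 and lowered 3. These counts, and those of the roles below, stand beside the shares of all tested genes. Those were 16.4% higher and 16.2% lower with wortmannin, and 8.4% and 7.25% with high-dose Schisandrae. With high-dose Polygalae they were 10.2% and 9.94%, and with high-dose Aucklandiae 13.6% and 12.5%. ALB is the most abundant plasma carrier. It measured 7021, 6517 and 6430 CPM in the 3 vehicle libraries and 8090.5, 7747 and 8131 CPM with wortmannin, a log2 fold change of 0.26 ± 0.09 (SE, edgeR adjusted p = 0.014). The wortmannin libraries were all above the vehicle libraries, but without vehicle replicate 3 the change was 0.24 and the adjusted p 0.062. At the high doses the log2 fold changes of ALB were -0.02 with Schisandrae, -0.12 with Polygalae and -0.05 with Aucklandiae, with no call.

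AFP, next to ALB on chromosome 4, measured 3050, 2766 and 2719 CPM in the vehicle libraries. High-dose Aucklandiae gave 1748, 1641 and 1608 CPM, a log2 fold change of -0.77 ± 0.10 (edgeR adjusted p = 1e-07). With high-dose Polygalae AFP measured 2141, 2130 and 2165 CPM, a change of -0.41 ± 0.10 (edgeR adjusted p = 0.0034). Both groups lay wholly below the vehicle, whereas the log2 fold change was -0.05 with wortmannin and -0.08 with high-dose Schisandrae, with overlapping libraries and no call. Within the Polygalae and Aucklandiae set, high- against low-dose Aucklandiae gave -0.81 ± 0.10 for AFP (edgeR adjusted p = 5e-08), with 3458, 2577 and 2748 CPM at the low dose. The low-dose libraries thus spread more widely than the vehicle, and all 3 lay above the high-dose libraries.

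As a ratio within a library, which needs no scaling, AFP counts per 100 ALB counts were 42.7 ± 0.623 in the vehicle (mean ± SD, n = 3). They were 25.9 ± 0.9 with high-dose Aucklandiae and 38 ± 1.75 with its low dose. The ratio was 34.3 ± 0.631 with wortmannin and 35 ± 0.666 with high-dose Polygalae, and 39.6, 41.9 and 41.7 in the libraries of high-dose Schisandrae. The mean of every treated group lay below that of the vehicle, also with high-dose Liriopis (38.7 ± 1.08), where AFP was not called. The lowest ratio belonged to high-dose Aucklandiae, where AFP fell and ALB was not called, and these ratios are given as a description with no test.

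**Figure D4:**
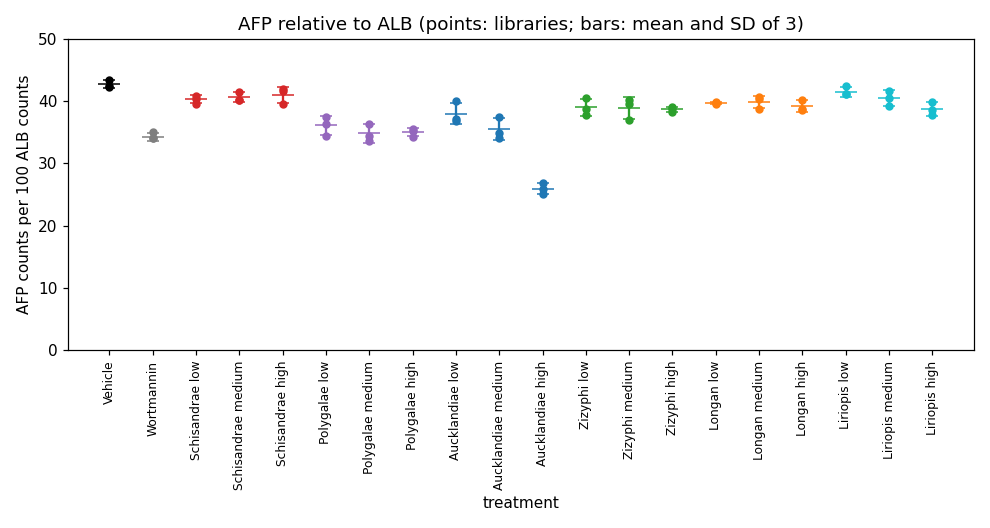
AFP counts per 100 ALB counts in each of the 60 libraries (points), with the mean and SD of the 3 libraries of a group (bars). High-dose Aucklandiae lies at 25.9, apart from the vehicle at 42.7, and from wortmannin and high-dose Polygalae at 34.3 and 35.

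ALB (chr4:73397114-73421412) and AFP (chr4:73431138-73456174) lie on the same strand, and their starts are shown because the pair moved unequally. The 250 bases before the RefSeq start (GRCh38.p14, plus strand) are chr4:73404037-73404286 for ALB and chr4:73435971-73436220 for AFP. Capitals mark matches on either strand to TTGCNNAA, a C/EBP pattern.
ALB: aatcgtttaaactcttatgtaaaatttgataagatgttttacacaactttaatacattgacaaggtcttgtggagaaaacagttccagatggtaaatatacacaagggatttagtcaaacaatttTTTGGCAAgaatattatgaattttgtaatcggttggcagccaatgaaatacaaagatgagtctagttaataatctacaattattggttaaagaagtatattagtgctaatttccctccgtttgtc
AFP: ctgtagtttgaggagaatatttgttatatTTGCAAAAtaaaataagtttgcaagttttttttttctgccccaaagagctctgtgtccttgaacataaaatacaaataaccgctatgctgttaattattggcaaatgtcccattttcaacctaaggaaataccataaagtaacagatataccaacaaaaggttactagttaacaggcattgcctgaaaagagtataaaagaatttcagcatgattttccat
Both windows hold the pattern once, beginning 125 bases before the start of ALB and 221 bases before that of AFP. Of 35116 RefSeq promoter windows of the same length, 9.05% held TTGCNNAA. A match is a description of the letters, not a binding site or a cause.

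AHSG, which encodes fetuin-A, a carrier that keeps calcium phosphate in solution, measured 1736, 1880 and 1881 CPM in the vehicle. It rose to 2949.5, 2883 and 2936 CPM with wortmannin, a log2 fold change of 0.67 ± 0.08 (edgeR adjusted p = 6.8e-10). With high-dose Schisandrae AHSG measured 2197, 2425 and 2473 CPM (0.37 ± 0.07, edgeR adjusted p = 0.00027), and with high-dose Aucklandiae 2454, 2472 and 2299 CPM (0.39 ± 0.07, edgeR adjusted p = 5.7e-05). In all 3 comparisons the treated libraries lay above the vehicle libraries. With high-dose Polygalae the log2 fold change of AHSG was -0.08, with overlap and no call.

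CP encodes ceruloplasmin, the copper-carrying ferroxidase of plasma. It measured 108, 88.7 and 96.2 CPM in the vehicle and 163, 171 and 172 CPM with high-dose Schisandrae, a log2 fold change of 0.79 ± 0.07 (edgeR adjusted p = 5.4e-12). Against the low dose of the same set the change of CP was 0.67 ± 0.07 (edgeR adjusted p = 4.5e-10), and the medium dose lay between them at a mean of 119 CPM. LCN15, a member of the lipocalin family of small-molecule carriers, was near the detection limit in the vehicle at 0.639, 0.8 and 1.2 CPM. It measured 4.26, 6.39 and 5.46 CPM with high-dose Schisandrae, the largest log2 fold change among the 48 genes in that comparison at 2.63 ± 0.25 (edgeR adjusted p = 2e-11). The medium dose gave LCN15 levels of 2.5, 2.76 and 3.83 CPM, still above every vehicle library (1.80 ± 0.26, edgeR adjusted p = 9.9e-06). LCN15 also rose with high-dose Aucklandiae (2.52, 1.8 and 1.98 CPM, 1.27 ± 0.27, edgeR adjusted p = 0.00028) and with high-dose Polygalae (2.47, 1.67 and 1.49 CPM, 1.12 ± 0.27, edgeR adjusted p = 0.002). In all 19 treated groups its mean lay above that of the vehicle.

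The other carriers moved by smaller amounts or from low levels. HPX, which encodes the heme carrier hemopexin, had a vehicle mean of 13 CPM and fell with wortmannin (log2 fold change -0.70 ± 0.10, edgeR adjusted p = 4e-07), with high-dose Schisandrae (-0.63 ± 0.10, edgeR adjusted p = 6.5e-06) and with high-dose Polygalae (-0.47 ± 0.10, edgeR adjusted p = 0.00043). With wortmannin, HPX was the only carrier that fell. TTR, the thyroid hormone and retinol transport protein transthyretin, rose by 0.97 ± 0.13 with wortmannin (edgeR adjusted p = 1e-07), from a mean of 69.9 to 137 CPM. AMBP, the precursor of alpha-1-microglobulin and of bikunin, rose by 0.41 ± 0.06 with wortmannin (edgeR adjusted p = 1.7e-06) and by 0.38 ± 0.06 with high-dose Aucklandiae (edgeR adjusted p = 8.4e-06).

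Apolipoproteins give lipoprotein particles their structure and steer their exchange and uptake. Of the 7, 4 rose and 0 fell with wortmannin. High-dose Schisandrae raised 1 and lowered 2, and the high doses of Polygalae and Aucklandiae lowered 2 each. Of all tested genes, 20.1% and 26.1% were called with high-dose Polygalae and Aucklandiae. The 2 calls among 7 genes are therefore not read as a result about this role. APOM, which carries sphingosine-1-phosphate on high-density lipoprotein, measured 46.1, 50.6 and 51.3 CPM in the vehicle and 129, 127 and 124 CPM with wortmannin. Its log2 fold change of 1.36 ± 0.14 (edgeR adjusted p = 1.4e-10) was the largest rise among the 48 genes in that comparison, and no wortmannin library came near a vehicle library. APOM also rose with high-dose Schisandrae, to 58.2, 73.2 and 76.5 CPM (0.49 ± 0.14, edgeR adjusted p = 0.013). This call ended without any one of vehicle replicate 1 and Schisandrae replicates 2 and 3.

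APOB measured 29395, 26179 and 27085 CPM in the vehicle and 19690, 19601 and 20428 CPM with high-dose Polygalae, a log2 fold change of -0.47 ± 0.09 (edgeR adjusted p = 0.00018). All 3 treated libraries lay below the vehicle. APOB is the most counted of the 53 genes, and the apolipoproteins' summed share of counts went from 3.19% ± 0.156 in the vehicle to 2.38% ± 0.0512. With wortmannin the log2 fold change of APOB was 0.11 and with high-dose Schisandrae 0.06, without a call. APOH, a phospholipid-binding plasma glycoprotein also known as beta-2-glycoprotein I, measured 1031, 970 and 932 CPM in the vehicle and 671, 698 and 708 CPM with high-dose Polygalae (-0.50 ± 0.14, edgeR adjusted p = 0.0099). Without the 4 libraries of low GC slope the change of APOH was -0.47 and the adjusted p 0.051. APOH also fell with high-dose Schisandrae, to 614, 733 and 723 CPM (-0.50 ± 0.14, edgeR adjusted p = 0.011). That call ended without vehicle replicate 1 or without Schisandrae replicate 1.

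APOA2 fell with high-dose Aucklandiae, from 1687, 1677 and 1544 CPM to 909, 1047 and 837 CPM (log2 fold change -0.81 ± 0.23, edgeR adjusted p = 0.0054). APOA1, the main protein of high-density lipoprotein, measured 867, 1101 and 1046 CPM in the vehicle and 1057.5, 1114 and 1009 CPM at the same dose (0.08 ± 0.10, edgeR adjusted p = 0.62), so its libraries overlapped. APOA2 counts per 100 APOA1 counts were 165 ± 25.9 in the vehicle (mean ± SD, n = 3). The ratio was 87.6 ± 5.65 with high-dose Aucklandiae (85.9, 93.9 and 83). With low-dose Aucklandiae it was 158, 93.5 and 104 (118 ± 34.8), so the libraries of these doses overlapped. The mean of every extract group lay below that of the vehicle, also with high-dose Liriopis (109 ± 18.6), where APOA2 was not called. With wortmannin the mean was higher, at 173 ± 8.71. No test was made of these ratios. Vehicle replicate 1, one of the libraries of low GC slope, had the lowest APOA1 value of the 3 vehicle libraries. Its ratio of 195 was the highest of them.

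The coagulation and kinin genes encode fibrinogen, the proteases that lead to its cleavage and the serpins that inhibit them. Of the 15 tested, 13 rose and 0 fell with wortmannin. The counts turned round with the 3 high doses: 1 rose and 8 fell with Schisandrae, 1 rose and 11 fell with Polygalae, and 1 rose and 7 fell with Aucklandiae. The summed level of the 16 genes was 0.451% ± 0.0136 of all counts in the vehicle (SD, n = 3) and 0.623% ± 0.0113 with wortmannin. It was 0.362% ± 0.00909, 0.358% ± 0.007 and 0.399% ± 0.00236 with high-dose Schisandrae, Polygalae and Aucklandiae.

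Fibrinogen is assembled from 3 chains whose genes lie together on chromosome 4: FGB (chr4:154562956-154571086, plus strand), FGA (chr4:154583126-154590766, minus strand) and FGG (chr4:154604134-154612967, minus strand). The starts of the 3 genes are shown because the chains changed to unequal extents. The 250 bases before each RefSeq start (GRCh38.p14) are chr4:154562730-154562979 on the plus strand, and chr4:154590743-154590992 and chr4:154612657-154612906 on the minus strand. Capitals mark TTGCNNAA (C/EBP), CTGGGA (type II interleukin-6 element) and TTCNNNGAA (STAT), on either strand.
FGB: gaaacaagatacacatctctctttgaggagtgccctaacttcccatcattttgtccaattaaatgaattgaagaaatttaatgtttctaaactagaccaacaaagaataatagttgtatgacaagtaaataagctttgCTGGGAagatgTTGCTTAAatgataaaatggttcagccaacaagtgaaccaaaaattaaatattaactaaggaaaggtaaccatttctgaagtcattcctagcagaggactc
FGA: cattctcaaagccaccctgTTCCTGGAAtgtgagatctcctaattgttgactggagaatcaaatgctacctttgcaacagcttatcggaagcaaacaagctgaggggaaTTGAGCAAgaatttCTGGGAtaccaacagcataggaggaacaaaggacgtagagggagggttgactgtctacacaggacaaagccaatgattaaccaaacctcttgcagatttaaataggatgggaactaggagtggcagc
FGG: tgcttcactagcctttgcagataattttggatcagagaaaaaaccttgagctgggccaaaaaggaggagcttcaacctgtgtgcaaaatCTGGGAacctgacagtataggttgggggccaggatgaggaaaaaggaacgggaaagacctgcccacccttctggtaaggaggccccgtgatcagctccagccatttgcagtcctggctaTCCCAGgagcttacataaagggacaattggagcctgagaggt
CTGGGA occurs in all 3 windows, 2 times in that of FGG, and TTCNNNGAA in that of FGA alone of the 3. The C/EBP pattern is in the windows of FGB and FGA. In FGA the STAT match begins 231 bases and the C/EBP match 141 bases before the start, and no 2 marked matches overlap in these windows. Of all 35116 windows, 28.7% held CTGGGA and 6.57% held TTCNNNGAA. Among the 37 of the 53 genes with a RefSeq window, 12 held CTGGGA, 8 TTCNNNGAA and 9 TTGCNNAA. These are matches to letters and no measure of binding.

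FGA measured 1236, 1180 and 1194 CPM in the vehicle and 2015, 1973 and 2073 CPM with wortmannin, a log2 fold change of 0.75 ± 0.05 (edgeR adjusted p = 4.2e-16). FGG measured 1177, 1026 and 1041 CPM in the vehicle and 1404, 1353 and 1421 CPM with wortmannin (0.37 ± 0.06, edgeR adjusted p = 1.3e-05). FGB measured 366, 335 and 321 CPM in the vehicle and 385, 381 and 398 CPM with wortmannin (0.19 ± 0.07, edgeR adjusted p = 0.046). The 3 chains were all above the vehicle, but for FGB the call ended without any one of 5 of the 6 libraries (vehicle replicates 2 and 3 and each wortmannin replicate), with changes of 0.14 to 0.24 as single libraries were left out.

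With high-dose Schisandrae the 3 chains fell together. FGG went down to 661, 715 and 707 CPM (log2 fold change -0.64 ± 0.06, edgeR adjusted p = 1.1e-10), FGA to 847, 890 and 862 CPM (-0.47 ± 0.05, edgeR adjusted p = 6.9e-10) and FGB to 239, 263 and 244 CPM (-0.46 ± 0.07, edgeR adjusted p = 7.6e-06). No treated library overlapped the vehicle. Within the set, high against low dose gave -0.60 ± 0.06 for FGG (edgeR adjusted p = 7.5e-10), -0.54 ± 0.05 for FGA (edgeR adjusted p = 2.3e-11) and -0.38 ± 0.07 for FGB (edgeR adjusted p = 0.00018). Group means of FGA were 1261, 1097 and 866 CPM from the low to the high dose, and those of FGG 1052, 886 and 694 CPM.

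With high-dose Polygalae, FGB measured 221, 222 and 225 CPM (log2 fold change -0.62 ± 0.07, edgeR adjusted p = 1.8e-08), FGG 791, 841 and 857 CPM (-0.38 ± 0.06, edgeR adjusted p = 1.6e-05) and FGA 962, 944 and 1013.5 CPM (-0.31 ± 0.05, edgeR adjusted p = 1.4e-05). With high-dose Aucklandiae, FGB measured 224, 225 and 216 CPM (-0.62 ± 0.07, edgeR adjusted p = 5.7e-09), whereas FGA measured 1117, 1109 and 1141.5 CPM (-0.10 ± 0.05, edgeR adjusted p = 0.15). FGB thus fell with both extracts of the set and FGA passed the test with Polygalae, not with Aucklandiae, although its 3 Aucklandiae libraries also lay below the vehicle. The difference between the 2 extracts was not tested. For FGG, high-dose Aucklandiae gave 895, 940 and 895 CPM (-0.25 ± 0.06, edgeR adjusted p = 0.0027). Leaving out vehicle replicate 1 ended this call (-0.19, adjusted p = 0.051).

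FGA counts per 100 FGB counts put these unequal changes on 1 scale within each library, here with no test. The ratio was 354 ± 17.3 in the vehicle (mean ± SD, n = 3) and 349 ± 9.21 with high-dose Schisandrae. It was 437 ± 11.8 with high-dose Polygalae, 507 ± 18.7 with high-dose Aucklandiae and 520 ± 2.65 with wortmannin. The ratio with low-dose Aucklandiae was 408 ± 16. Similar ratios therefore came from opposite changes, a rise of FGA with wortmannin and a fall of FGB with Aucklandiae.

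**Figure D5:**
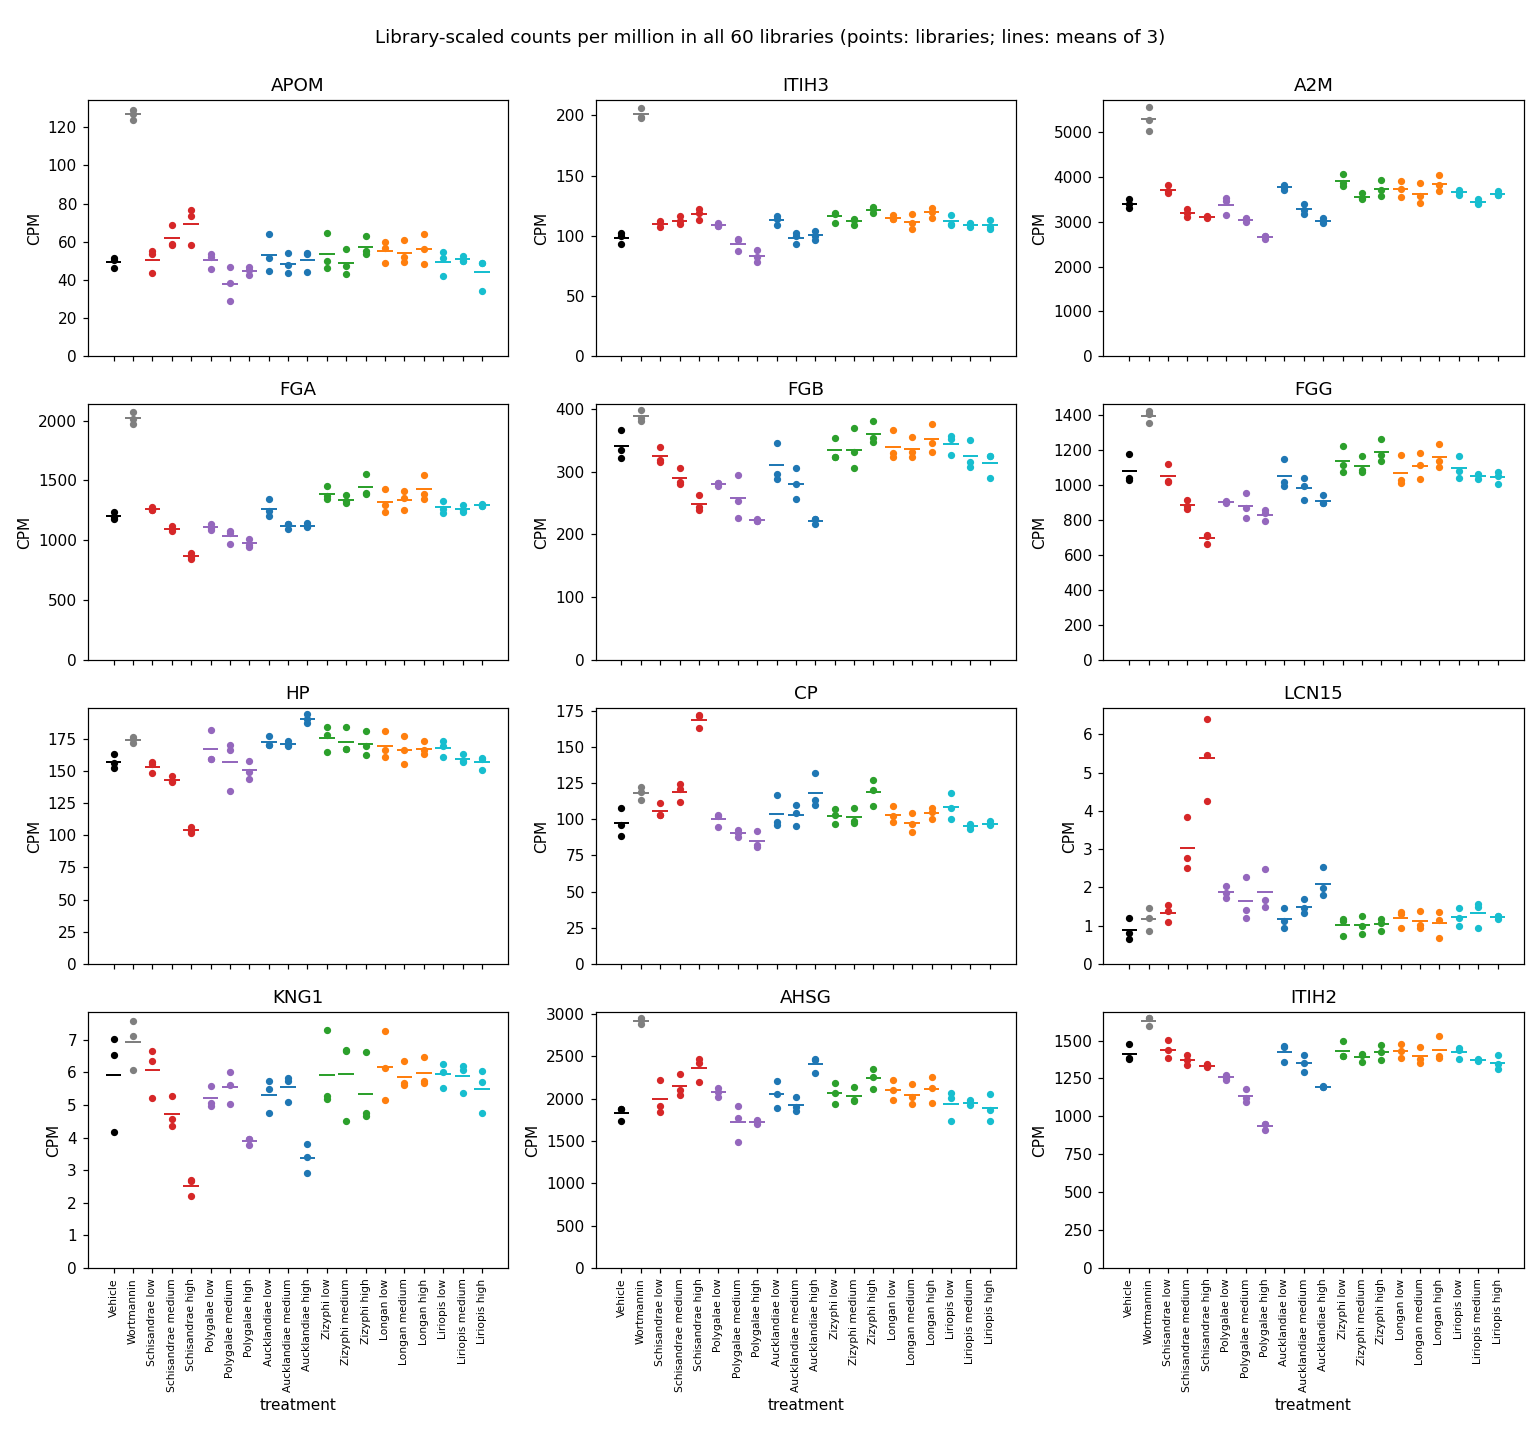
CPM of 12 genes in each of the 60 libraries, by treatment group, with a separate linear axis from 0 for each gene. FGA, APOM, ITIH3 and A2M stand highest with wortmannin, FGG, HP and KNG1 stand lowest and CP and LCN15 highest with high-dose Schisandrae, and ITIH2 stands lowest with high-dose Polygalae.

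Among the clotting factors, F5, the cofactor that speeds thrombin formation, measured 272, 222 and 241 CPM in the vehicle and 144, 155 and 153 CPM with high-dose Polygalae. Its log2 fold change of -0.70 ± 0.07 (edgeR adjusted p = 6e-11) was the largest fall among genes above 5 CPM in that comparison. F5 was higher with wortmannin at 338, 314 and 337 CPM (0.43 ± 0.07, edgeR adjusted p = 2.2e-06), and near the vehicle with high-dose Schisandrae (-0.01, no call). F10, the protease that F5 assists, measured 30.1, 34.7 and 35.3 CPM in the vehicle and 54.4, 51.8 and 50.3 CPM with wortmannin (0.64 ± 0.07, edgeR adjusted p = 5.2e-10). At the high doses its log2 fold change was -0.02 with Schisandrae, -0.07 with Polygalae and 0.00 with Aucklandiae. Of this pair, the cofactor fell with Polygalae and no call was made for the protease. F12, which starts the contact pathway, had a vehicle mean of 3.34 CPM and rose with wortmannin (0.74 ± 0.15, edgeR adjusted p = 8.9e-05) and with high-dose Aucklandiae (0.87 ± 0.15, edgeR adjusted p = 6.7e-06). F12 was also the 1 coagulation gene that rose with high-dose Polygalae, at 4.74, 4.84 and 4.77 CPM (0.52 ± 0.15, edgeR adjusted p = 0.0084). With vehicle replicate 1 left out, this rise of F12 no longer passed the test.

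KNG1, which encodes the kininogens from which bradykinin is cut, was a low-level gene at 7.03, 6.54 and 4.17 CPM in the vehicle. It measured 2.22, 2.7 and 2.66 CPM with high-dose Schisandrae, a log2 fold change of -1.23 ± 0.17 (edgeR adjusted p = 3.9e-07), the largest fall among the 48 genes there. With high-dose Aucklandiae KNG1 measured 3.8, 3.39 and 2.91 CPM (-0.82 ± 0.16, edgeR adjusted p = 0.00012). Both groups lay below every vehicle library, and within their sets high against low dose gave -1.26 ± 0.17 (edgeR adjusted p = 2.3e-07) and -0.66 ± 0.16 (edgeR adjusted p = 0.0029). With high-dose Polygalae the values of KNG1 were 3.96, 3.95 and 3.76 CPM (-0.61 ± 0.16, edgeR adjusted p = 0.004), and without vehicle replicate 1 the change was -0.47 with an adjusted p of 0.072. KNG1 (chr3:186717276-186744410) lies on chromosome 3 near AHSG (chr3:186612923-186621318), on the same strand with FETUB between them, and AHSG rose where KNG1 fell with high-dose Schisandrae and Aucklandiae. The 250 bases before their RefSeq starts (GRCh38.p14, plus strand) are chr3:186612810-186613059 and chr3:186717109-186717358, shown for these neighbours of opposite change with TTGCNNAA in capitals.
AHSG: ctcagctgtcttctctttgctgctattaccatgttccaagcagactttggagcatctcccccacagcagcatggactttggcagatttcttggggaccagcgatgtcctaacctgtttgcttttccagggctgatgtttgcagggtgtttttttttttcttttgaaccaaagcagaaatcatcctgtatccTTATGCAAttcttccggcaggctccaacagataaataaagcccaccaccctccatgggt
KNG1: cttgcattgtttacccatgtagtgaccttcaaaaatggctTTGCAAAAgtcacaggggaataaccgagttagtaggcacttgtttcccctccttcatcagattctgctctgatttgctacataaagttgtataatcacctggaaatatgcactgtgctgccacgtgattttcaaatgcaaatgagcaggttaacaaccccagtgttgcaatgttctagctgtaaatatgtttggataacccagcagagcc
Each window holds the C/EBP pattern once, beginning 59 bases before the start of AHSG and 210 bases before that of KNG1, and neither of the other 2 motifs.

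Complement proteins tag microbes and damaged cells and form the lytic pore. Of the 5 genes, 4 rose with wortmannin, 5 fell with high-dose Polygalae, and 4 fell with each of the high doses of Schisandrae and Aucklandiae. C3, the central component, measured 2636, 2674 and 2752 CPM in the vehicle and 1932, 1886 and 1966 CPM with high-dose Polygalae, a log2 fold change of -0.48 ± 0.04 (edgeR adjusted p = 1.9e-14). The medium dose gave 2254, 2263 and 2259 CPM (-0.25 ± 0.04, edgeR adjusted p = 2.1e-06) and the low dose 2452.5, 2193 and 2446 CPM (-0.19 ± 0.04, edgeR adjusted p = 0.00025). C3 thus lay below the vehicle at all 3 Polygalae doses, although a fit of the 6 libraries alone gave adjusted p-values of 0.1 (medium) and 0.077 (low), and high against low dose gave -0.29 ± 0.04 (edgeR adjusted p = 5.7e-08). With wortmannin C3 measured 3268.5, 3299 and 3417 CPM (0.31 ± 0.04, edgeR adjusted p = 1.8e-09), and with high-dose Aucklandiae 2344, 2270.4 and 2353 CPM (-0.21 ± 0.04, edgeR adjusted p = 8.9e-06).

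CFB, the protease precursor of the alternative pathway, measured 127, 135 and 134 CPM in the vehicle and 197, 201 and 207 CPM with wortmannin (log2 fold change 0.61 ± 0.04, edgeR adjusted p = 2.1e-16). It measured 109, 105 and 108 CPM with high-dose Polygalae (-0.29 ± 0.04, edgeR adjusted p = 6.6e-07) and 118, 110 and 109 CPM with high-dose Aucklandiae (-0.23 ± 0.04, edgeR adjusted p = 2.8e-05). C5, the precursor of the pore's first component, fell from 183, 164 and 163 CPM to 117, 119 and 119 CPM with high-dose Polygalae (-0.53 ± 0.06, edgeR adjusted p = 1.2e-08). The 3 Polygalae libraries of C5 differed by less than those of the vehicle did. VTN, which encodes vitronectin, an adhesion protein that also blocks the pore, measured 114, 125 and 125 CPM in the vehicle. It fell to 81.6, 79.1 and 81.2 CPM with high-dose Polygalae (-0.59 ± 0.09, edgeR adjusted p = 9.6e-07) and to 89.7, 92.1 and 83.8 CPM with high-dose Aucklandiae (-0.45 ± 0.09, edgeR adjusted p = 4.6e-05). With wortmannin VTN was the complement gene that was not called (0.10 ± 0.08, edgeR adjusted p = 0.42). With high-dose Schisandrae the lowest log2 fold change of the 4 falls was that of SERPING1, the inhibitor of C1, which measured 16.3, 13.8 and 15.5 CPM in the vehicle and 11.1, 11.2 and 10.8 CPM with the extract (-0.46 ± 0.13, edgeR adjusted p = 0.01). The treated libraries lay below the vehicle, and without vehicle replicate 1 the call of SERPING1 ended. The other 3 falls were -0.24 ± 0.08 for VTN, -0.19 ± 0.06 for C5 and -0.10 ± 0.04 for C3, and each of these calls ended without any one of at least 3 single libraries.

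The acute phase group holds inducible and constitutive plasma proteins and protease inhibitors. Of its 10 tested genes, 5 rose and 1 fell with wortmannin, 1 rose and 3 fell with high-dose Schisandrae, 1 rose and 4 fell with high-dose Polygalae, and 2 rose and 4 fell with high-dose Aucklandiae. ITIH1, ITIH2 and ITIH3 encode heavy chains of the inter-alpha-trypsin inhibitors, which bind hyaluronan in the extracellular matrix. All of these listed chains rose with wortmannin, to unequal extents. With high-dose Schisandrae ITIH3 rose (0.27 ± 0.05, edgeR adjusted p = 2.2e-05) and ITIH1 fell (-0.44 ± 0.13, edgeR adjusted p = 0.017). The call of ITIH1 ended there without vehicle replicate 3 or Schisandrae replicate 3. ITIH3 measured 92.8, 100 and 102 CPM in the vehicle and 198, 199 and 206 CPM with wortmannin, a log2 fold change of 1.04 ± 0.05 (edgeR adjusted p = 8e-23), the smallest p of the 48 genes. ITIH1, which lies beside ITIH3 on chromosome 3, rose by 0.92 ± 0.12 (edgeR adjusted p = 2.5e-08) from a mean of 4.32 CPM. ITIH2, on chromosome 10, measured 1477, 1388 and 1377 CPM in the vehicle and rose by 0.21 ± 0.04 (edgeR adjusted p = 0.00013) to 1646, 1598.5 and 1650.3 CPM.

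With high-dose Polygalae, ITIH2 fell to 910, 951 and 949 CPM, a log2 fold change of -0.59 ± 0.04 (edgeR adjusted p = 4.1e-15). The group means of ITIH2 were 1256, 1133 and 937 CPM from the low to the high dose, and high against low dose gave -0.42 ± 0.04 (edgeR adjusted p = 3.6e-10). ITIH3 measured 88.4, 78.6 and 82.7 CPM at the high dose (-0.24 ± 0.05, edgeR adjusted p = 0.00014), all below the vehicle. In the other direction, ITIH3 rose in 10 of the 19 comparisons with the vehicle, which share its 3 libraries, and its group mean lay above the vehicle in 17 of 19. Without vehicle replicate 1, which had the lowest vehicle value, the rise of ITIH3 kept its call with wortmannin (0.99), with high-dose Schisandrae (0.23), with high-dose Zizyphi (0.27) and with high-dose Longan (0.24). It lost it with medium-dose Schisandrae (0.16), medium- and low-dose Zizyphi (0.15 and 0.21), low-dose Longan (0.19), low-dose Polygalae (0.11) and low-dose Aucklandiae (0.16), with adjusted p-values of 0.057 to 0.31.

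HP, which encodes the hemoglobin-binding protein haptoglobin, measured 152, 163 and 156 CPM in the vehicle. It fell to 102, 106 and 103 CPM with high-dose Schisandrae, a log2 fold change of -0.60 ± 0.06 (edgeR adjusted p = 7.4e-11), and rose to 190, 194 and 187 CPM with high-dose Aucklandiae (0.28 ± 0.06, edgeR adjusted p = 0.00032). No library of either group overlapped the vehicle, and the difference between these extracts was not tested. Within the Schisandrae doses, HP had means of 153, 143 and 103 CPM from the low to the high dose, and high against low gave -0.57 ± 0.06 (edgeR adjusted p = 4.6e-10). With high-dose Polygalae the log2 fold change of HP was -0.06, with overlapping libraries. HP and HPX, which clear free hemoglobin and heme, both fell with high-dose Schisandrae.

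A2M, a protease inhibitor of broad range, measured 3404, 3310 and 3504 CPM in the vehicle and 5279, 5017 and 5560 CPM with wortmannin (log2 fold change 0.63 ± 0.04, edgeR adjusted p = 1.1e-15). High-dose Polygalae gave 2671.5, 2625 and 2689 CPM (-0.36 ± 0.04, edgeR adjusted p = 4.8e-08), and high-dose Aucklandiae 3086, 2965 and 3010.5 CPM (-0.17 ± 0.04, edgeR adjusted p = 0.0027). SERPINA1 measured 6671, 6432 and 6188 CPM in the vehicle and 4500.1, 5033 and 4657.5 CPM with high-dose Polygalae (-0.44 ± 0.12, edgeR adjusted p = 0.006). With wortmannin it overlapped the vehicle (-0.03, no call), unlike A2M. SERPINA3, the inhibitor of cathepsin G and chymotrypsin-like proteases, had a vehicle mean of 91.9 CPM and fell with wortmannin (-0.36 ± 0.10, edgeR adjusted p = 0.0035) and with high-dose Aucklandiae (-0.50 ± 0.10, edgeR adjusted p = 8.4e-05). SAA4 rose with high-dose Aucklandiae from a mean of 29.4 to 50.9 CPM (0.79 ± 0.15, edgeR adjusted p = 3.5e-05). The acute phase genes of high-dose Aucklandiae thus included HP and SAA4 above and SERPINA3, A2M and ITIH2 below the vehicle.

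Zizyphi, Longan and Liriopis gave small changes at their high doses. With Zizyphi, FGA measured 1390, 1554 and 1394 CPM (log2 fold change 0.26 ± 0.05, edgeR adjusted p = 0.001) and ITIH3 122, 124 and 119 CPM (0.31 ± 0.05, edgeR adjusted p = 1.5e-05), all above the vehicle. These 2 of the 9 calls held with each library left out in turn. In a fit of the 6 libraries alone FGA had an adjusted p of 0.051. With Longan, ITIH3 measured 120, 115 and 123 CPM (0.28 ± 0.05, edgeR adjusted p = 0.0004), with an adjusted p of 0.14 in the fit of 6 libraries, and FGA 1384, 1346 and 1542 CPM (0.24 ± 0.05, edgeR adjusted p = 0.0075), with 0.18 and an adjusted p of 0.096 without Longan replicate 3. With Liriopis the log2 fold changes were 0.10 for ALB, 0.10 for FGA, 0.15 for ITIH3 and -0.12 for FGB, none of them called. The median over the 48 genes was -0.0171 with high-dose Liriopis, 0.0484 with high-dose Longan and 0.123 with high-dose Zizyphi.

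High against low dose, compared within a code set and without the vehicle, changed 20 of the 48 genes with Schisandrae, 5 higher and 15 lower (9.99% of all tested genes called, 5.19% higher and 4.8% lower). Polygalae changed 17, all lower (3.93%, with 2.7% lower), and Aucklandiae 21, 5 higher and 16 lower (14.9%, with 7.77% higher and 7.14% lower). Longan (0.00605%), Zizyphi (0.351%) and Liriopis (0%) changed 0. With each library left out in turn, 14, 11 and 13 of the calls of Schisandrae, Polygalae and Aucklandiae held every time. Falls were found in coagulation (8, 5 and 5 of 15 genes), complement (3, 4 and 4 of 5) and acute phase genes (3, 4 and 4 of 10). With Polygalae, VTN fell by 0.47 ± 0.08 (edgeR adjusted p = 0.00019), CFB by 0.33 ± 0.04 (edgeR adjusted p = 1.2e-07), FGB by 0.33 ± 0.07 (edgeR adjusted p = 0.0032) and C5 by 0.31 ± 0.06 (edgeR adjusted p = 0.00093) on the log2 scale. With Aucklandiae, FGB fell by 0.49 ± 0.07 (edgeR adjusted p = 2.2e-06), A2M by 0.32 ± 0.04 (edgeR adjusted p = 3.3e-07) and CFB by 0.34 ± 0.04 (edgeR adjusted p = 1.4e-08), while SAA4 rose by 0.71 ± 0.14 (edgeR adjusted p = 0.00023) and F12 by 0.61 ± 0.14 (edgeR adjusted p = 0.0011). The falls of these genes were therefore also present where no set was crossed.

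A further list of 53 plasma protein genes outside the 53, of which 49 were tested, gave 28 rises and 3 falls with wortmannin, 4 and 16 with high-dose Schisandrae, 7 and 18 with high-dose Polygalae, and 9 and 15 with high-dose Aucklandiae. Of the 49, 57.1% thus rose with wortmannin, where 16.4% of all tested genes did, and 32.7%, 36.7% and 30.6% fell with the 3 high doses, where 7.25%, 9.94% and 12.5% of all tested genes did. This list was also chosen with earlier results of these data known, so it is not an independent check. It holds C2 and SERPINA4, which overlap CFB and SERPINA5 of the 53. Its member C1S, a protease of the classical complement pathway, rose by 1.20 ± 0.07 with high-dose Aucklandiae (edgeR adjusted p = 9.4e-18), where 4 of the 5 complement genes above fell.

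A list of 18 genes held genes of interleukin-6 and interleukin-1 signalling together with NR3C1, the glucocorticoid receptor. Of these 18, 1 rose and 2 fell with wortmannin, and 3 rose and 3 fell with high-dose Schisandrae. With high-dose Polygalae 1 rose and 4 fell, and with high-dose Aucklandiae 2 rose and 2 fell. The called share of the 18 was 16.7%, 33.3%, 27.8% and 22.2%, beside 32.6%, 15.7%, 20.1% and 26.1% of all tested genes, so with wortmannin and Aucklandiae it was no higher than the background. IL6R, the interleukin-6 receptor, rose in all 4, from 23.3 ± 1.33 CPM in the vehicle (SD, n = 3) to 42.2 ± 1.01 with wortmannin (log2 fold change 0.85 ± 0.07, edgeR adjusted p = 1.3e-14) and 60.4 ± 1.32 with high-dose Aucklandiae (1.37 ± 0.07, edgeR adjusted p = 2.7e-22). IL6R was also higher with high-dose Schisandrae (0.82 ± 0.07, edgeR adjusted p = 1e-13) and Polygalae (0.71 ± 0.07, edgeR adjusted p = 9.8e-12), where the fibrinogen chains were lower. Of 24 liver transcription factors, 3 rose and 5 fell with wortmannin, 2 and 7 with Schisandrae, 2 and 3 with Polygalae, and 2 and 9 with Aucklandiae at the high dose. The called share of the 24 was 33.3% with wortmannin and 20.8% with Polygalae, near the 32.6% and 20.1% of all tested genes, and 37.5% with Schisandrae and 45.8% with Aucklandiae, beside 15.7% and 26.1%.

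Of 20 genes that serve protein entry, folding and export in the secretory pathway, 1 rose and 13 fell with high-dose Polygalae. The counts were 5 and 3 with wortmannin, 7 and 1 with high-dose Schisandrae and 6 and 2 with high-dose Aucklandiae. With Polygalae 65% of the 20 fell, beside 9.94% of all tested genes. The called share was 40% in each of the other 3, beside 32.6%, 15.7% and 26.1% of all tested genes. PDIA4, a disulfide isomerase of the endoplasmic reticulum, fell from 539 ± 14.9 CPM (SD, n = 3) to 335 ± 7.72 with high-dose Polygalae (log2 fold change -0.68 ± 0.04, edgeR adjusted p = 1.2e-16), and SEC24D, a coat protein of export vesicles, from 98.8 ± 2.21 to 65.2 ± 0.623 CPM (-0.60 ± 0.05, edgeR adjusted p = 6.7e-13). High against low dose gave -0.50 ± 0.04 for PDIA4 (edgeR adjusted p = 7.8e-12) and -0.44 ± 0.05 for SEC24D (edgeR adjusted p = 1.1e-08). With high-dose Schisandrae the log2 fold change of PDIA4 was -0.07 ± 0.04, without a call. MTTP, which loads lipid onto APOB, rose by 0.53 ± 0.05 with wortmannin (edgeR adjusted p = 2.2e-11) and had a log2 fold change of -0.03 ± 0.05 with high-dose Polygalae, where APOB fell.

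Summed over the 53 genes, the share of all counts was 7.43% ± 0.128 with wortmannin (SD, n = 3), 6.28% ± 0.121 with high-dose Schisandrae, 4.98% ± 0.0732 with high-dose Polygalae and 5.49% ± 0.143 with high-dose Aucklandiae, against 6.41% ± 0.227 in the vehicle. The share with Schisandrae lay within the spread of the vehicle although 18 genes fell, and ALB and APOB, which hold much of the sum, were not called there. No test was made of these sums.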

How the data were processed

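The authors deposited expected counts per gene, which are estimated read numbers that need not be whole, in 1 table of 60 libraries. Per the labels' protocols, RNA (integrity number above 7) was made into strand-specific libraries and read as pairs of 100 bp. FastQC 0.11.9, Trim Galore 0.6.5, STAR 2.7.3a, RSEM 1.3.3, hg38 and GRCh38 are named per the submitters' processing notes. For the annotation release and the strand setting of the counting: not given in the sources used here.

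Expected counts were rounded. edgeR's filterByExpr by group left 16517 genes, and untested genes held 0.0532% of counts. Libraries were scaled with TMM factors (0.92 to 1.08), and all 60 libraries entered 1 quasi-likelihood model of 20 groups (edgeR 4.0.16 with limma 3.58.1 in R 4.3.3). Each of 25 contrasts was tested 2-sided with Benjamini-Hochberg adjustment over all tested genes at 0.05. CPM values follow TMM scaling, and SE come from the fit. In no comparison was the median of all tested genes farther than 0.00955 from 0 on the log2 scale. A run on simulated counts covered the 6 libraries of 1 comparison alone, not the model of all 60, and its outcome is not given here. Symbols were matched for 56558 of 60675 gene identifiers, and gene coordinates are those of GENCODE 29 (GRCh38).

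The members and lists were chosen with earlier results of these data known. Values in every library are given, per role, for the 4 members with the smallest p over wortmannin and the 6 high doses that reached 5 CPM, and for ALB, AFP, APOA1, APOB, FGB, SERPINA1, C3, KNG1 and LCN15; from 4 further lists, up to 4 genes each could be named by the same p. Alternatives were RLE scaling, no filter and a stricter filter on low counts, DESeq2 1.42.0, replicate blocks, the 6 libraries of a comparison alone, leaving out 4 libraries of low GC slope, and leaving out single libraries. Same-numbered replicates deviated together (all 3 correlations over 0.1) in low-dose Liriopis against the vehicle (0.554, 0.33, 0.241), high- against low-dose Schisandrae (0.411, 0.167, 0.35) and high- against low-dose Zizyphi (0.371, 0.59, 0.176). The labels do not say what a replicate number shares. Some genes and motif matches are not reported here.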

Additional observations from a re-analysis of the deposited data

How the results depend on the processing

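The counts of the 48 genes called with wortmannin and with the high doses of Schisandrae, Polygalae and Aucklandiae stayed within 1.5 times in all alternatives run. With single libraries left out they ranged from 29 to 31 (34 with all libraries), 17 to 20 (25), 23 to 28 (29) and 21 to 23 (27). High against low dose ranged from 16 to 19 (20) with Schisandrae, 11 to 14 (17) with Polygalae and 14 to 20 (21) with Aucklandiae. Of 154 called values of named genes, none turned its direction: 118 of 1118 values under other settings, and 190 of 924 with a library left out, no longer passed the threshold. Smaller counts moved, and the causes were not tested. The share of all tested genes called under each setting is not given beside these counts. Without a filter on low counts (35717 genes) 5 genes were called with high-dose Liriopis, 7 and 2 with medium- and low-dose Schisandrae, 3 with low-dose Longan, 3 with medium-dose Zizyphi, 21 with medium-dose Polygalae, 4 with low-dose Aucklandiae, and 1 each for high against low dose of Liriopis and of Zizyphi. DESeq2 called 1 gene with low-dose Liriopis, 1 with medium-dose Longan, 2 with medium-dose Zizyphi and 4 with low-dose Aucklandiae. RLE scaling and the stricter filter (13152 genes) each called 1 with low-dose Aucklandiae. Without the 4 libraries of low GC slope the counts were 2 with medium-dose Schisandrae, 2 and 0 with high- and low-dose Longan, 3, 0 and 1 with high-, medium- and low-dose Zizyphi, 8 and 3 with medium- and low-dose Polygalae, and 2 and 0 with medium- and low-dose Aucklandiae. In a fit of the 6 libraries alone they were 0 and 0 with high- and low-dose Longan, 2, 0 and 0 with Zizyphi, 0 and 10 with medium- and low-dose Polygalae, and 1 and 0 with medium- and low-dose Aucklandiae. With single libraries left out the ranges were 1 to 4 with medium-dose Schisandrae, 1 to 5 and 0 to 1 with high- and low-dose Longan, 3 to 9, 0 to 1 and 0 to 5 with high-, medium- and low-dose Zizyphi, 7 to 23 and 3 to 16 with medium- and low-dose Polygalae, and 2 to 11 and 0 to 4 with medium- and low-dose Aucklandiae. With the replicate number as a block, where replicates deviated together, the counts were 0 with low-dose Liriopis, 20 for high against low dose of Schisandrae (22 with the block within code sets) and 0 for that of Zizyphi, and the block moved no count by over 1.5 times. Depth limits the genes near 1 CPM most, PLG, FETUB and LCN15, and at these depths CRP, SAA1, SAA2, F9 and GC could not be tested.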
